A study of Homo sapiens with 2 samples.

Results

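The cytotoxic granule genes are 10 genes chosen by symbol for what their proteins do in the killing granule: the granzymes GZMA, GZMB, GZMH, GZMK and GZMM, perforin (PRF1), granulysin (GNLY), serglycin (SRGN), NKG7 and cathepsin W (CTSW). All 10 were found among the 46427 genes of the table, and all 10 were among the 13665 genes with at least 20 reads summed over the libraries. NK92 is an established human natural killer (NK) cell line, and PPMX-T003 is an antibody against TfR1, the receptor that carries iron-loaded transferrin into cells. The 2 dishes compared were filled from 1 NK92 culture grown for 18 h in medium with human serum. During a further 6 h, 1 dish held PPMX-T003 at 10 µg/mL and the other held none. Poly(A) RNA from each dish gave 1 stranded library, with 46766416 reads counted in genes for the unexposed cells and 43178462 for the exposed cells. The deposited columns name the libraries by 0 h and 6 h, and if the dishes were harvested at different times, that difference and the exposure cannot be told apart. With 1 library per condition there was no replicate and no test, and each interval below is a 95% interval for counting error only, which compares these libraries and not the conditions.

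Markers of the cell line were examined first. All 11 NK cell markers were detected in both libraries, with a summed level of 1564 TPM (transcript abundance per length, scaled to the same total in each library) in unexposed and 1549 TPM in exposed cells, and IL2RB, the beta chain of the receptors for IL-2 and IL-15, was the most abundant at 669 and 696 TPM. The counting interval of the change lay above 0 for 3 of the 11 (IL2RB, NCR3 and CD7), below 0 for 4 (NCAM1, KLRC1, CD2 and SH2D1B) and on both sides of 0 for 4. The log2 changes of those 4 below 0 were -0.083 for NCAM1, -0.089 for KLRC1, -0.14 for CD2 and -0.14 for SH2D1B. Over the 1869 genes with a mean TPM of at least 100 the interval lay above 0 for 51.3% and below 0 for 21.9%. Most of these markers were below that level, and the share was not counted over all genes. With a fit on transcript GC content and length removed, as described below, IL2RB was at -0.019, NCR3 at -0.032 and KLRC1 at -0.0018, so of the 3 above 0 only CD7 (0.12) was still above it. Where that fit took each gene's longest transcript IL2RB was at 0.050 and NCR3 at -0.089. Of the 9 T cell markers 3 were detected in both libraries. CD3D, CD3G, CD5, CD8A and CD8B were listed at 0 in both libraries, whereas CD3E, the most abundant of that list, was at 673 and 698 TPM and the list summed to 1078 and 1152 TPM. The log2 change was 0.11 (0.078 to 0.14) for CD3E, 0.28 (0.21 to 0.34) for TRBC1 (330 and 385 TPM) and -0.077 (-0.18 to 0.031) for TRAC, so TRBC1, which is no granule gene, changed as much as GZMM. With the fit removed CD3E was at 0.075, and TRBC1 and TRAC had no GC content in the reference. The 5 B cell markers summed to 2 and 1 TPM, with 2 detected (CD79A, at 1 TPM in each library, and PAX5, with 169 and 78 reads) and MS4A1 at 0. The 6 mast cell markers summed to 0 TPM in both libraries, with CPA3, TPSAB1, TPSB2 and FCER1A at 0. The 6 myeloid markers summed to 15 TPM in each library, all of it from ITGAX (15 TPM), an integrin chain that NK cells also carry, with MPO and ELANE at 0. A listing at 0 is given as such, because cathepsin B (CTSB), which most cell types express, was also listed at 0 in both libraries.

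Killer lymphocytes store their lytic proteins in secretory lysosomes, where the basic granzymes and perforin are packed on the proteoglycan serglycin. On contact with a target cell the granules fuse with the plasma membrane, perforin forms pores in the target's membrane, and granzymes pass through them to cleave proteins and trigger cell death. Granulysin permeabilises membranes of microbes and tumour cells, and NKG7 is a granule membrane protein needed for efficient release.

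The upstream sequences of a pair of neighbouring granzyme genes that changed alike (GZMB and GZMH), of GZMA, which changed less, and of PRF1 are printed below so that the genes can be compared where transcription starts. They are the 250 bases before the start of the gene, 5′ to 3′ on the gene's own strand, from the RefSeq promoter table of GRCh38.p14, which held 6 of the 10 genes (GZMA, GZMB, GZMH, PRF1, GNLY and NKG7). Capitals mark matches, on either strand, to the RUNX letters TGTGGT and the AP-1 letters TGANTCA. The windows are chr5:55102396-55102645 on the plus strand for GZMA, and chr14:24634191-24634440 for GZMB, chr14:24609686-24609935 for GZMH and chr10:70602742-70602991 for PRF1 on the minus strand.
GZMA: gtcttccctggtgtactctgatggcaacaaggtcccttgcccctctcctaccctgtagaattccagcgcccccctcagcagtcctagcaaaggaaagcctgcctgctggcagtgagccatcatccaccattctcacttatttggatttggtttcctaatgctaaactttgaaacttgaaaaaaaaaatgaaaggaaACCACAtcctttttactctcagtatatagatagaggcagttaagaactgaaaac
GZMB: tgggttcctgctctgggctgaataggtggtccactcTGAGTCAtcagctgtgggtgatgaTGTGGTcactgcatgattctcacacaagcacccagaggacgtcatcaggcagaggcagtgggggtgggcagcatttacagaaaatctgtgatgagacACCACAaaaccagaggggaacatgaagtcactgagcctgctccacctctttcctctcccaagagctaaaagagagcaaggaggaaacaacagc
GZMH: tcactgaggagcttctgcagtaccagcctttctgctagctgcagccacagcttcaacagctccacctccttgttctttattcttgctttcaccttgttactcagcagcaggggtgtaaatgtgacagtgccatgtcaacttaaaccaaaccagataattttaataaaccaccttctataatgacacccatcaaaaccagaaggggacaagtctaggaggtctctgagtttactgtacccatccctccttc
PRF1: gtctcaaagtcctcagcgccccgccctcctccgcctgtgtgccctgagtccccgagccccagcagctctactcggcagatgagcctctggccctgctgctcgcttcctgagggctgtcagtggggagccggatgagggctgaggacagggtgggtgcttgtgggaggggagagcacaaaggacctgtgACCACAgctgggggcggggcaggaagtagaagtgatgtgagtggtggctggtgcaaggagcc

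RUNX letters were in 4 of the 6 windows (GZMA, GZMB, PRF1 and GNLY) and in 11.0% of all 35116 promoter windows of that length. In PRF1 and in GNLY the match lay 62 to 57 bases before the start, and in GZMA 54 to 49 bases before it. GZMB held the letters at 190 to 185 and at 93 to 88 bases before the start, and it was the only one of the 6 with the AP-1 letters, which 6.57% of all windows held. The letters TGACGTCA of a cyclic AMP response element (1.65% of all windows), AGGTGTNA of T-box factors (2.15%) and TTCNNNGAA of STAT factors (6.57%) were in none of the 6, and no searched motif overlapped another in these windows. A match is a description of the letters only. GZMH, the neighbour of GZMB, held none of the searched motifs in its window.

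The granule genes were among the abundant transcripts of NK92 cells. Only TPM was used to compare the level of one gene with that of another, and ratios of reads between genes, given below, serve only to compare their changes. Together the 10 genes took 9551 TPM in unexposed and 10157 TPM in exposed cells, which was 0.956% and 1.02% of the summed TPM. Of all counted reads, which are not scaled by length, they took 0.431% (95% Clopper-Pearson interval 0.429 to 0.433) and 0.474% (0.471 to 0.476). Their levels ran over a 22.8-fold range in unexposed and a 21.8-fold range in exposed cells, from GZMH at 141 and 158 TPM to NKG7 at 3215 and 3445 TPM.

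NKG7 was the gene of rank 25 of all genes by TPM in unexposed cells and of rank 21 in exposed cells. The 3 genes directly above it in unexposed cells were the ribosomal protein genes RPLP0 (3251 TPM) and RPL17 (3244 TPM) and the mitochondrial respiratory chain gene COX3 (3239 TPM). Close below it were the chaperone gene HSP90AB1 (3108 TPM) and the ribosomal protein gene RPS24 (3045 TPM). The transcript of a granule membrane protein thus stood at the level of ribosomal protein transcripts in this cell line. These 5 genes had log2 changes from 0.018 for HSP90AB1 to 0.16 for COX3, and NKG7 was at 0.16. With the GC and length fit described below removed COX3 was at 0.16 and NKG7 at 0.025, so their likeness depended on the fit. HSP90AB1 was at -0.035 from the deposited TPM, and RPLP0 at -0.030 where the fit took each gene's longest transcript.

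**Figure D1:**
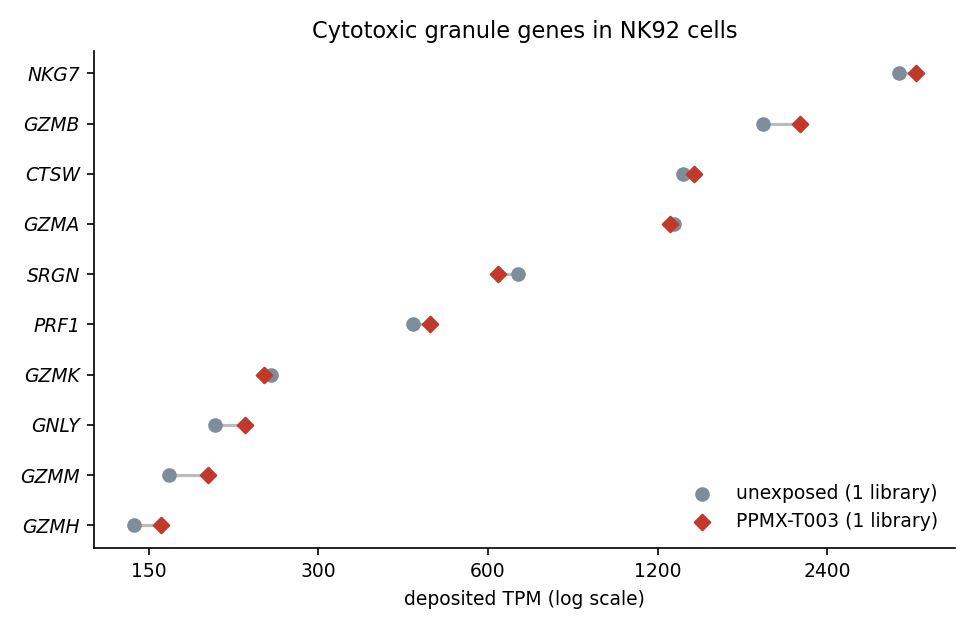
Level of each cytotoxic granule gene in NK92 cells, as deposited TPM on a log axis, with a grey circle for the unexposed library and a red diamond for the PPMX-T003 library (1 library each). NKG7 was highest at 3215 and 3445 TPM and GZMH lowest at 141 and 158 TPM in unexposed and exposed cells.

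In the scaled counts the granule genes stood slightly higher as a group after exposure to PPMX-T003, with unequal changes. GZMM and GZMB, 2 of 10, passed 1.2-fold upwards, and 0 of 10 passed it downwards. Over all 13665 genes the share past 1.2-fold was 12.2% upwards and 12.4% downwards, and of these genes only 595 upwards and 740 downwards had at least 200 reads. Among the 1869 genes with a mean TPM of at least 100, a level that all 10 granule genes exceed and that was chosen after the data were seen, the shares were 2.14% and 0.963%. The counting interval lay above 0 for 8 of 10 granule genes, below 0 for SRGN and on both sides of 0 for GZMK, and over the 1869 abundant genes it lay above 0 for 51.3% and below 0 for 21.9%. The median log2 change of the 10 genes was 0.16, beside 0.050 over the abundant genes and -0.0020 over all genes. From the deposited TPM and with the GC and length fit described below removed, 0 of 10 passed 1.2-fold, and the median was 0.099 from the TPM, 0.082 with the fit removed and 0.030 where that fit took each gene's longest transcript. The median over the abundant genes moved too, to -0.0055 from the TPM, 0.020 with the fit removed and -0.0031 with the longest transcripts. The scaled reads summed over the 10 genes gave a log2 change of 0.14 (0.13 to 0.15). In bulk RNA, fewer cells of a type and less RNA per cell cannot be told apart.

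**Figure D2:**
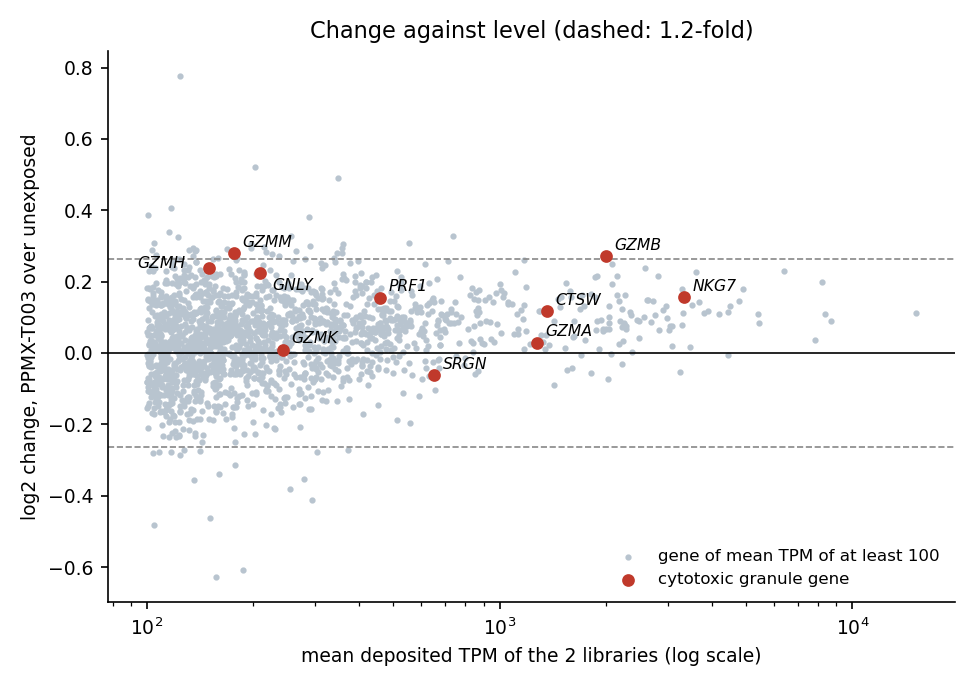
Log2 change, PPMX-T003 over unexposed, against the mean deposited TPM of the 2 libraries (log axis) for the 1869 genes with a mean TPM of at least 100, with the cytotoxic granule genes in red and dashed lines at 1.2-fold. GZMB and GZMM lie just above the upper dashed line, and SRGN is the only granule gene below 0.

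Among the granzymes, the serine proteases of the granule, GZMB and GZMM were highest relative to the unexposed library and GZMA and GZMK were nearly level. GZMB (NCBI Gene 3002), which cleaves after aspartate and activates caspases, had 34265 reads in unexposed and 38124 in exposed cells, or 732 and 884 CPM (reads scaled to library size). This was a log2 change of 0.27 (0.25 to 0.29), higher than in 98.1% of the abundant genes. The interval reached below the 1.2-fold line at 0.26, so the count of 2 genes past it rests on a value at the line.

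GZMM (NCBI Gene 3004), a granzyme that cleaves after methionine and leucine, had 3146 and 3524 reads and 163 and 191 TPM. Its log2 change was 0.28 (0.21 to 0.35). With the GC and length fit described below removed it was 0.10, or 0.040 where that fit took each gene's longest transcript. GZMH (NCBI Gene 2999), a granzyme with chymotrypsin-like activity, had 2735 and 2972 reads and 141 and 158 TPM. Its log2 change was 0.24 (0.16 to 0.31), so GZMM, GZMB and GZMH could not be ordered beyond counting error.

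GZMA (NCBI Gene 3001), a tryptase that triggers death without caspases, had 23972 and 22545 reads and 1284 and 1261 TPM. Its log2 change from the scaled counts was 0.029 (0.0024 to 0.055), and from the deposited TPM it was -0.026. GZMK (NCBI Gene 3003), the other tryptase, had 7765 and 7205 reads and 247 and 240 TPM, and its log2 change of 0.0093 had an interval of -0.037 to 0.056. From the deposited TPM GZMK was at -0.041, and with the GC and length fit described below removed it was at 0.085. In the scaled counts both tryptases thus stayed near their level in the unexposed library. The direction for GZMA and the sign for GZMK turned with the scale used.

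The makeup of the granzyme pool moved accordingly. GZMB gave 50.2% of the summed granzyme TPM in unexposed and 53.7% in exposed cells, and GZMA gave 34.8% and 31.5%. GZMK gave 6.70% and 6.00%, GZMM 4.42% and 4.78%, and GZMH 3.83% and 3.95%. The order of the 5 granzymes by TPM was the same in both libraries.

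A ratio between a pair of genes within a library does not depend on how the libraries are scaled. The reads of GZMA per read of GZMB went from 0.700 in unexposed to 0.591 in exposed cells, a ratio of 0.845 (0.826 to 0.865). Over all 45 pairs of granule genes, the interval of this ratio excluded no difference for 35 pairs, by counting error alone and with no adjustment for the number of pairs. Pairs of other genes were not counted, so whether 35 of 45 is particular to the granule genes was not tested. The pairs described here were picked after their values were seen.

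The granzyme genes lie at 3 places in the genome. GZMB (chr14:24630954-24634190) and GZMH (chr14:24606480-24609685) are neighbours on the minus strand of chromosome 14, and the log2 change of GZMB minus that of GZMH was 0.034 (-0.044 to 0.11). GZMA (chr5:55102646-55110252) and GZMK (chr5:55024256-55034570) are neighbours on the plus strand of chromosome 5, and the change of GZMA minus that of GZMK was 0.019 (-0.034 to 0.073). Within each neighbouring pair the changes were not told apart at this depth, whereas GZMB exceeded GZMA by 0.24 (0.21 to 0.28). GZMM (chr19:544053-549922) lies on another chromosome, and its change was not told apart from those of the chromosome 14 pair either, with GZMB minus GZMM at -0.0097 (-0.082 to 0.063) and GZMH minus GZMM at -0.044 (-0.15 to 0.058). With the GC and length fit removed GZMB was at 0.21, GZMH at 0.16 and GZMM at 0.10, and GZMB minus GZMM was 0.11, so the likeness of GZMM to GZMB depended on the fit. Of the windows of 50 bases in their transcripts, GZMB and GZMH share 57, which is 3.83% of those of GZMB and 5.72% of those of GZMH, so part of the reads of the less abundant GZMH could come from GZMB, and its value is uncertain to that extent.

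Perforin, the pore-forming protein, had 23187 reads in unexposed and 23802 in exposed cells and 442 and 473 TPM. Its log2 change was 0.16 (0.13 to 0.18). NKG7 had 50704 and 52091 reads, and its log2 change was also 0.16 (0.14 to 0.17). The change of PRF1 minus that of NKG7 was -0.0012 (-0.033 to 0.030), and it was 0.053 after the GC and length fit described below was removed, or 0.078 where that fit took each gene's longest transcript. GNLY, the membrane-permeabilising saposin-like protein, had 3362 and 3621 reads and 197 and 222 TPM, with a log2 change of 0.22 (0.16 to 0.29). The interval for GNLY overlapped those of both GZMH and PRF1. PRF1, NKG7 and GNLY lay above the tryptases in the scaled counts, but with the fit removed NKG7 was at 0.025 and PRF1 at 0.078, below the 0.085 of GZMK. The other tryptase, GZMA, was then at 0.063, below PRF1 and above NKG7. Where the fit took each gene's longest transcript PRF1 was at 0.051, above the 0.019 of GZMK, and NKG7 at -0.027, so their order depended on the fit.

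CTSW, a papain-like cysteine protease expressed mainly in NK cells and cytotoxic T cells, had 35339 reads in unexposed and 35338 in exposed cells. With fewer reads in the exposed library as a whole, this was a log2 change of 0.12 (0.096 to 0.14), and its deposited TPM was 1333 and 1392. The change was 0.020 with the GC and length fit removed and -0.032 where that fit took each gene's longest transcript, so its direction depended on the fit. Its exons overlap those of FIBP on the other strand, and those of GZMK overlap an antisense gene, AC034238.1. The libraries were stranded, but whether counting used the strand is not given in the sources used here, so these values are uncertain to that extent.

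SRGN, the proteoglycan core that holds granzymes and perforin in the granule, was lower in exposed cells, with 17244 and 15236 reads and 679 and 626 TPM. Its log2 change was -0.061 (-0.093 to -0.030), negative under every scaling of the counts. The change of GZMB minus that of SRGN was 0.33 (0.29 to 0.37), and it was 0.18 with the GC and length fit removed, or 0.19 where the fit took each gene's longest transcript. The change of SRGN itself was 0.027 with the fit on GC content and median transcript length removed and -0.050 where the longest transcript was taken instead, so its sign depended on the fit.

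**Figure D3:**
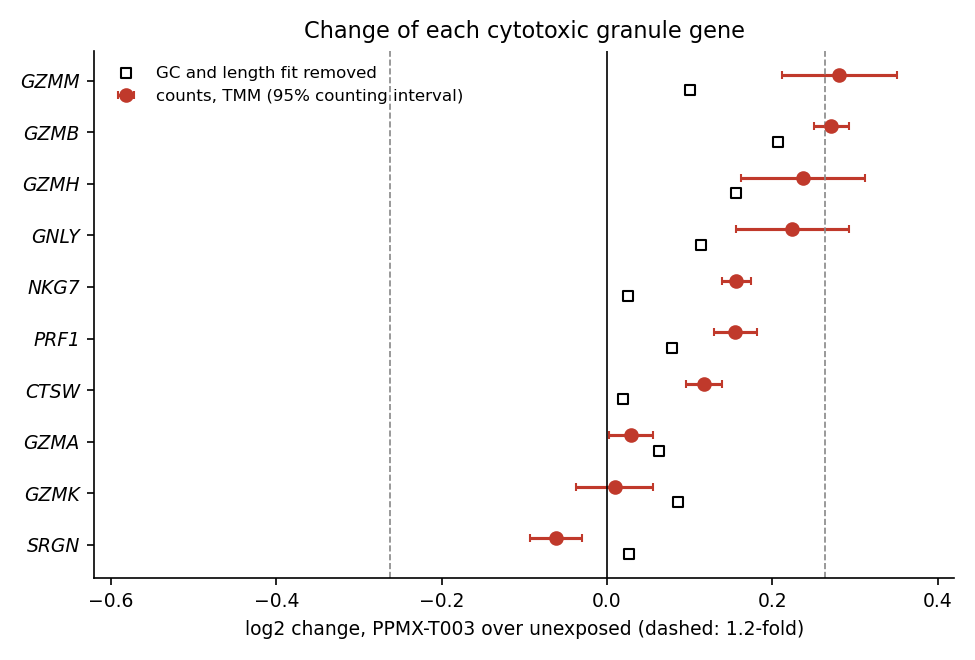
Log2 change of each cytotoxic granule gene, PPMX-T003 over unexposed, as red points with 95% counting intervals, and as open squares after a fit on transcript GC content and length was removed, with dashed lines at 1.2-fold. The red points run from 0.28 for GZMM to -0.061 for SRGN, and the squares from 0.21 for GZMB to 0.020 for CTSW.

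Changes over all genes went with the GC content of the transcripts, and the granule genes differ widely in it. Among the abundant genes, split by GC content into 10 groups of nearly equal size, the lowest group (31.8% to 41.4%) had a median log2 change of -0.058 and the highest (60.9% to 71.9%) had one of 0.14. SRGN (38.1% GC), GZMK (40.5%) and GZMA (42.7%), the granule genes of lowest GC content, were also the 3 with the lowest log2 changes. GZMM had the highest GC content, at 66.8%, and the highest log2 change. The order of the granule genes by change therefore went in part with base composition, and the part this played in their changes was not tested.

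A robust linear fit of log2 change on GC content and log2 length over 9949 genes was removed for comparison. All 10 granule genes were then above 0, with a median of 0.082 beside 0.020 over the abundant genes, and 0 of 10 were past 1.2-fold. Of the abundant genes 59.3% were then above 0, and of all 11962 genes with a value 47.8% were above 0, 960 were past 1.2-fold upwards and 1165 downwards. GZMB was then the highest, at 0.21, followed by GZMH at 0.16, GNLY at 0.11 and GZMM at 0.10. The change of GZMB minus that of GZMA was 0.14 after removal, and that of GZMM minus that of GZMK went from 0.27 to 0.015. With each gene's longest transcript in place of the median length, a choice added after the data were seen, 6 of 10 were above 0, and GZMA, NKG7, CTSW and SRGN were below it. GZMB was then at 0.14, GZMH at 0.094, GNLY at 0.045 and GZMM at 0.040. Of the abundant genes 48.6% were then above 0 and of all genes 46.4%, so with that fit the share of granule genes above 0 was little different from that of other genes.

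**Figure D4:**
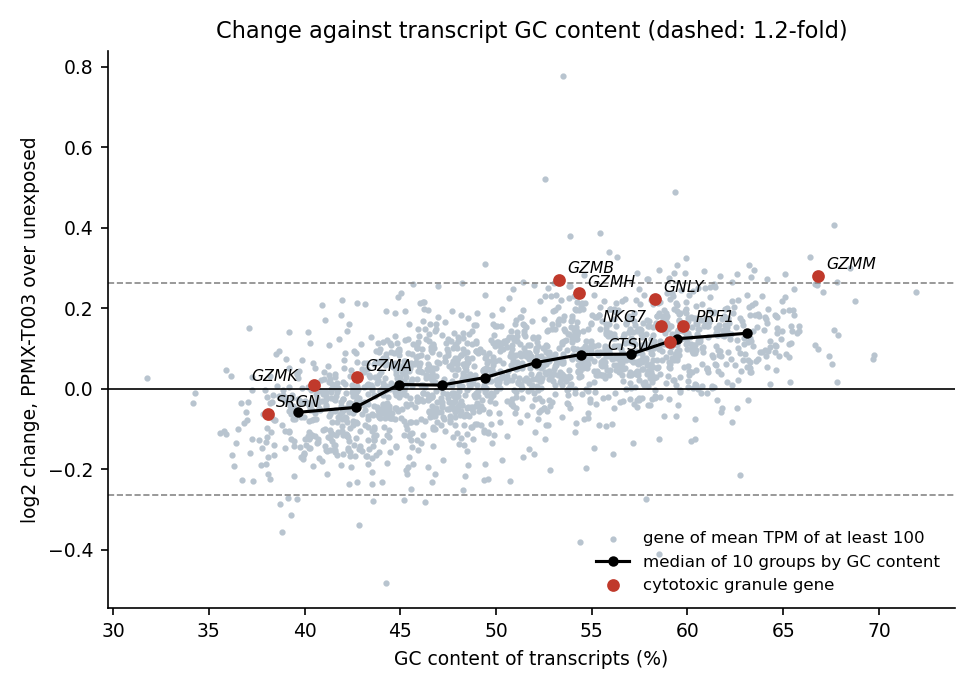
Log2 change, PPMX-T003 over unexposed, against GC content of the transcripts for genes with a mean TPM of at least 100 (grey), the medians of 10 groups of these genes by GC content (black) and the cytotoxic granule genes (red), with dashed lines at 1.2-fold. The medians go from -0.058 to 0.14, GZMB, GZMH and GNLY lie above the line of medians and GZMM above its last point, and CTSW and NKG7 lie close to it.

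The other genes of the granule pathway were read from 5 lists, each beside the shares over all genes (12.2% past 1.2-fold upwards and 12.4% downwards) and their median of -0.0020. Over all genes 49.7% were above 0 (6880 of 13665 were below), and over the abundant genes 66.1% were above 0 (634 of 1869 were below). Of the 14 genes that process or inhibit granule proteases, 8 had enough reads, all 8 were above 0, 0 were past 1.2-fold in either direction, and the median was 0.093. With the GC and length fit removed 7 of the 8 were above 0 and the median was 0.10. Where that fit took each gene's longest transcript 7 were also above 0, with a median of 0.12. From the deposited TPM the median was 0.038. CTSC, the dipeptidyl peptidase that removes the propeptide of granzymes, was the most abundant, with 1629 and 1610 TPM and a log2 change of 0.046 (0.031 to 0.061), which was -0.017 from the deposited TPM. CALR, a chaperone that also binds perforin, had 1468 and 1621 TPM and a log2 change of 0.20 (0.18 to 0.21). The interval lay above 0 for 6 of the 8 and below 0 for 0 of them, beside 51.3% and 21.9% of the abundant genes. In the lists that follow, it lay above 0 for 9 and below for 8 of 20 lysosomal genes, and for 8 and 12 of 29 exocytosis genes. For the serglycin chain genes these counts were 6 and 4 of 19, and for the membrane defence genes 6 and 4 of 13. Most genes of the lists that follow were below the level of the abundant genes. The shares of the abundant genes are therefore not a matching background for those lists, and the share was not counted over all genes. The genes of the processing and inhibitor list without enough reads were CTSH, CTSL, CTSB, CST3, CSTA and SERPINB8.

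Genes of the lysosomal membrane and of sorting to it, 20 of 21 with enough reads, were split evenly in the scaled counts, with 10 above and 10 below 0 and a median of -0.00081. From the deposited TPM their median was -0.057. CD63, a lysosomal tetraspanin, was the most abundant at 377 and 376 TPM with a log2 change of 0.053 (0.0079 to 0.098), but -0.0038 from the deposited TPM, -0.023 with the GC and length fit removed and -0.065 where that fit took each gene's longest transcript. LAMP1, the membrane protein exposed on degranulation, had 98 and 106 TPM and a log2 change of 0.18 (0.12 to 0.23). The 2 genes at least 1.2-fold lower were LYST, the lysosomal trafficking regulator mutated in Chediak-Higashi syndrome, and SORT1, a sorting receptor. LYST had 3744 and 2822 reads and a log2 change of -0.29 (-0.36 to -0.22), and SORT1 had 2348 and 1770 reads and a log2 change of -0.29 (-0.38 to -0.20).

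Of the genes of granule transport and exocytosis, 29 of 30 had enough reads, with 10 above and 19 below 0, 1 past 1.2-fold in each direction and a median of -0.045. With the GC and length fit removed 7 were above and 22 below 0, beside 47.8% of all genes above 0. None of the 29 was then past 1.2-fold, and the median was -0.024. Where that fit took each gene's longest transcript 10 were above and 19 below, with a median of -0.036. CORO1A, an actin regulator, was the most abundant at 2491 and 2470 TPM, with a log2 change of 0.041 (0.027 to 0.055) that was -0.012 from the deposited TPM and -0.11 after the GC and length fit was removed. VAMP2, a vesicle SNARE, had 818 and 940 reads and a log2 change of 0.32 (0.18 to 0.45). VAMP7, another vesicle SNARE, had 2425 and 1859 reads and a log2 change of -0.27 (-0.35 to -0.18). The fusion machinery thus held vesicle SNAREs on either side of 0.

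The enzymes that build the chondroitin sulfate chains carried by serglycin had 19 of 25 genes with enough reads, 2 at least 1.2-fold higher, 1 lower and a median of 0.021. XYLT1, a xylosyltransferase that starts the chain, had 12083 and 8405 reads and a log2 change of -0.41 (-0.45 to -0.37), and CHPF, a chondroitin polymerising factor, had 1482 and 1750 reads and a log2 change of 0.36 (0.26 to 0.46). The other gene past 1.2-fold was CHST7, named after its values were seen, with 24 and 27 reads and an interval of -0.56 to 1.1. CHSY1, a chondroitin synthase and the most abundant, had 140 and 122 TPM and a log2 change of -0.13 (-0.17 to -0.098). Over this list 13 of 19 were above 0 and 6 below, but with the GC and length fit removed 9 were above and 10 below, with a median of -0.016. Where that fit took each gene's longest transcript 10 were above and 9 below, with a median of 0.0071. The change of XYLT1 after the GC and length fit was removed was -0.35. XYLT2, the other xylosyltransferase of the list and also named after its values were seen, went the other way. It had 1155 and 1251 reads and a log2 change of 0.23 (0.12 to 0.35), which was 0.11 with that fit removed.

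Genes that repair or protect the membrane of the killer cell numbered 13, all with enough reads, with 2 at least 1.2-fold higher, 0 lower and a median of 0.040, which was -0.024 from the deposited TPM. With the GC and length fit removed 8 of the 13 were above 0, with a median of 0.047. Where that fit took each gene's longest transcript 8 were also above 0, with a median of 0.023. CHMP2A, a subunit of the ESCRT-III complex, had 2067 and 2411 reads and a log2 change of 0.34 (0.25 to 0.42), and ANXA1, a calcium-dependent membrane-binding protein, had 754 and 855 reads and a log2 change of 0.30 (0.16 to 0.44). ANXA2, of the same family, was the most abundant at 394 and 440 TPM with a log2 change of 0.18 (0.15 to 0.21). CHMP3, another ESCRT-III subunit, had 2668 and 2165 reads and a log2 change of -0.18 (-0.27 to -0.10), so subunits of the same complex lay on either side of 0.

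With the GC and length fit removed, 5 of the list genes named above with an interval outside 0 were no longer past 1.2-fold, namely LYST (-0.12), VAMP2 (0.25), VAMP7 (-0.15), CHPF (0.21) and CHMP2A (0.25). SORT1 (-0.29), XYLT1 (-0.35) and ANXA1 (0.35) were still past it. SORT1 was at -0.19 where the fit took each gene's longest transcript, and ANXA1 was at 0.25 from the deposited TPM, neither of them past 1.2-fold, so of these 3 only XYLT1 stayed past it under every alternative.

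**Figure D5:**
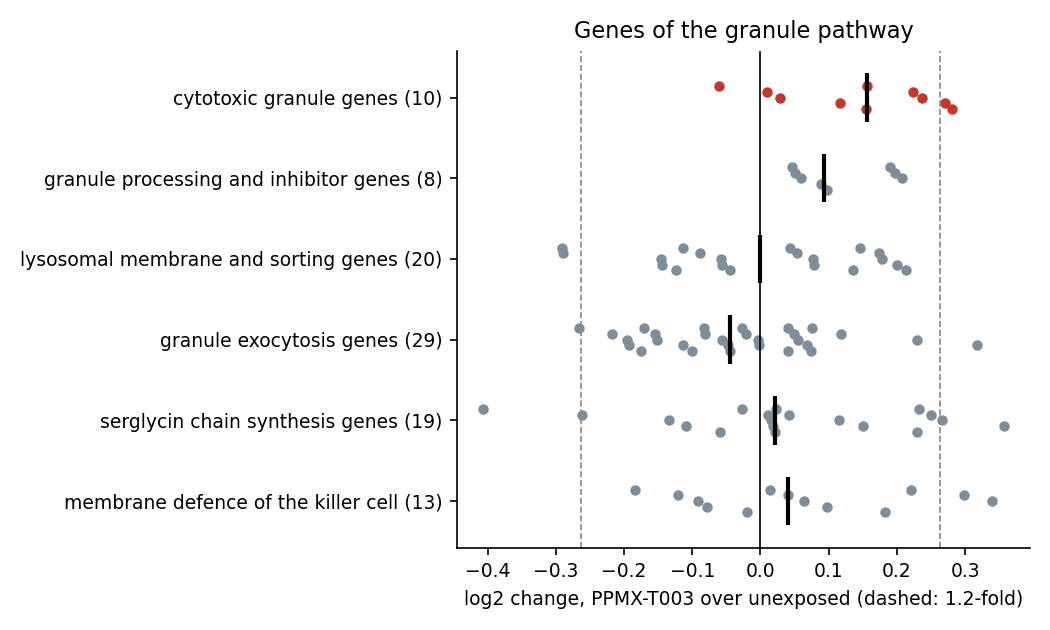
Log2 change, PPMX-T003 over unexposed, of each gene with at least 20 reads (points) and the median (black bar) for the cytotoxic granule genes and the 5 pathway lists, with the number of genes in brackets and dashed lines at 1.2-fold. The median is 0.16 for the granule genes and from -0.045 to 0.093 for the lists.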

How the data were processed

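Per the submitters' processing notes and the study's methods, the authors trimmed reads with Trimmomatic 0.38, mapped them to hg38 with HISAT2 2.2.0, counted them per gene with StringTie 2.1.3b and named edgeR 3.17 for their comparison. The deposited counts are whole reads per gene, recorded here under a general unit because large values hold commas, which were removed. The deposited TPM, rounded to whole numbers by the authors, was treated as a score. Another 2 columns of per-sample values (FPKM) were not used.

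Counts were scaled by TMM (30% of log ratios and 5% of levels trimmed), with a prior count of 2, in Python 3.11.15 (numpy 2.4.6, scipy 1.17.1, pandas 2.3.3, statsmodels 0.14.6, matplotlib 3.10.9). No count model was fitted. Intervals of log2 changes are Clopper-Pearson bounds for the fraction of each gene's reads that came from exposed cells, and those of pairs of genes are Wald intervals. GC content and length are medians over GENCODE 29 transcripts, matched by NCBI Gene ID for 87.5% of tested genes and all 10 members, and the fit used genes with at least 200 reads. Scaling, intervals and fit were tested on simulated data. The members and lists were chosen with earlier results of these data known. Named were all 10 members, their neighbours in level, the markers, and in each list the most abundant gene, the largest rise and fall by the interval bound nearest to 0 (where an interval lay outside 0) and those past 1.2-fold. The results of 1 neighbour and 1 marker are not reported here. Alternatives were other scalings, priors of 0.5 and 5, count filters, thresholds, TPM with a pseudocount of 1, GC fits and means.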

Additional observations from a re-analysis of the deposited data

How the results depend on the processing

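No paired analysis was possible because no condition had more than 1 library, and for that reason a replicate could not be left out, so that this check was not possible. The 10 granule genes gave 90 log2 changes under 9 alternatives, of which 55 lay within the gene's own counting interval, 29 lay outside it with no change of a called direction, and 6 turned. The turned values were -0.026 for GZMA from the deposited TPM, 0.027 (linear GC and length fit removed) and 0.029 (squared GC term added) for SRGN, and, when the fit used the longest transcripts, -0.022 for GZMA, -0.027 for NKG7 and -0.032 for CTSW. The longest transcripts, the squared GC term and the abundant genes alone were alternatives chosen after seeing the data.

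Granule genes at least 1.2-fold higher numbered 1 with median-of-ratios scaling, where GZMB was at 0.26, and 0 with the deposited TPM, with each of the 3 GC and length fits removed, and at 1.5-fold and 2-fold. None was at least 1.2-fold lower under any alternative. Of all genes, those at least 1.2-fold higher numbered 1661 and those lower 1700. They numbered 3937 and 3840 with at least 1 read, 595 and 740 with at least 200 reads, 538 and 525 at 1.5-fold, 173 and 188 at 2-fold, 40 and 18 among abundant genes, and 938 and 1788 with the deposited TPM. With the GC and length fit removed, 960 were higher (915 with the longest transcripts, 961 with the squared term) and 1165 lower.

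The median log2 change of the granule genes was 0.099 with the deposited TPM, 0.082 with the fit removed, 0.030 with the longest transcripts and 0.083 with the squared term. The deposited TPM lowered the log2 change of the abundant genes by a median difference of -0.054. With it, the medians were 0.038 for processing and inhibitor genes, -0.057 for lysosomal genes and -0.024, turned in sign, for membrane defence. The median of the serglycin chain genes was -0.016 with the fit removed, -0.015 with the squared term and 0.0071 with the longest transcripts. Means and the other scalings and priors moved no median by more than the typical counting interval of a granule gene.

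The change of GZMB minus that of SRGN was 0.18 with the squared term. The change of GZMB minus that of GZMM was 0.11 with the fit removed and 0.10 with the longest transcripts or the squared term. Of 417 values for 41 other genes and 6 pairs, 16 turned. The T cell receptor genes TRAC and TRBC1 had no GC content in the reference, so the GC and length fits gave no value for them. The turned values with the deposited TPM were CTSC (-0.017), CD63 (-0.0038), CORO1A (-0.012) and HSP90AB1 (-0.035). With the linear fit removed they were CD63 (-0.023), CORO1A (-0.11), NCR3 (-0.032) and IL2RB (-0.019). With the squared term they were CD63 (-0.023), CORO1A (-0.11), NCR3 (-0.032) and IL2RB (-0.018). With the longest transcripts they were CD63 (-0.065), CORO1A (-0.12), NCR3 (-0.089) and RPLP0 (-0.030). Apart from what each alternative's construction shows (other thresholds and fewer genes), the cause was not tested. Counting error covers neither differences between dishes nor how StringTie divides shared reads.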
